A study of Arabidopsis thaliana with 26 samples.

Results

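Plastid-encoded genes were followed across an Arabidopsis leaf series on ATH1 arrays, a short-oligonucleotide platform that reads a transcript through a set of probes, the probe set. A listed set of 60 plastid genes was matched to the probe sets whose single annotated symbol was one of them. This gave 58 of the 22810 probe sets, 1 per gene, and the gene table placed all 58 on the plastid genome. Neither ndhB nor rpl23 had a probe set of its own. By class, 15 encode photosystem II proteins, 7 encode photosystem I subunits or assembly factors and 6 encode the cytochrome b6f complex. A further 6 encode ATP synthase, 10 the NDH complex and 1, rbcL, the large subunit of Rubisco. The remaining members encode RNA polymerase (4), ribosomal proteins and the splicing factor matK (7), and the enzymes accD and clpP (2).

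The 26 arrays were hybridised with biotin-labelled total RNA from Col-0 plants of stock N1092, which were raised on compost under a 10 h day (20 °C, humidity 50%). All came from the treatment that the series title calls elevated CO2 with ambient light, although the growth notes of every sample give the atmosphere as normal. Developing leaves at insertions 19 to 21 were sampled at 2, 4, 12, 24, 48 and 96 h of treatment (n = 4 arrays each), and mature leaves of treated plants at 24 h (n = 2). The labels do not say which leaves were exposed to the gas, and every array used here is of a treated plant, which leaves the effect of the gas itself untested. The 2, 4 and 12 h samples also fell at other times of day than the later ones. Nothing in the labels says that replicates came from separate plants, so p-values measure the spread between samples only, and that spread may be technical.

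The plastid genome of a land plant is a bacterial-type remnant that encodes core subunits of the photosynthetic complexes and part of the machinery that expresses them. The other subunits are encoded in the nucleus and imported. Plastid genes are transcribed as multigene units by a plastid-encoded RNA polymerase and a nuclear-encoded phage-type polymerase, and the transcripts are then spliced, edited and cut. Unlike nuclear messages, plastid transcripts carry no long stable poly(A) tail, and short A-rich tails there mark RNA for decay. Labelling for this platform commonly primes on poly(A) tails, but the sources used here do not give the protocol of these samples. The spread between replicate arrays is therefore described before any comparison.

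The plastid-encoded probe sets varied more between replicate arrays than most other probe sets. All but ndhF, rpoB, psbN and atpI exceeded the 40th percentile of the signal on all 26 arrays. Signals are given in the deposited linear units, in the order of replicates 1 to 4, and differences as log2(signal + 16), where 16 is a constant that damps dim values. The median within-group SD of the 58 members was 0.36 on that scale, against 0.18 for the 16161 probe sets tested, and 96.1% of tested probe sets had a smaller SD than that of the median member. The 3982 brightest of the other tested probe sets had a median SD of 0.16. The 15 tested mitochondrion-encoded probe sets had a median SD of 0.25, and 11 further plastid-encoded probe sets outside the list had 0.29. Among the members, ndhC (an NDH subunit) had the smallest SD, 0.17, and rbcL the largest, 0.70. The 29 brighter members had a median SD of 0.29 and the 29 dimmer ones 0.44.

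**Figure D1:**
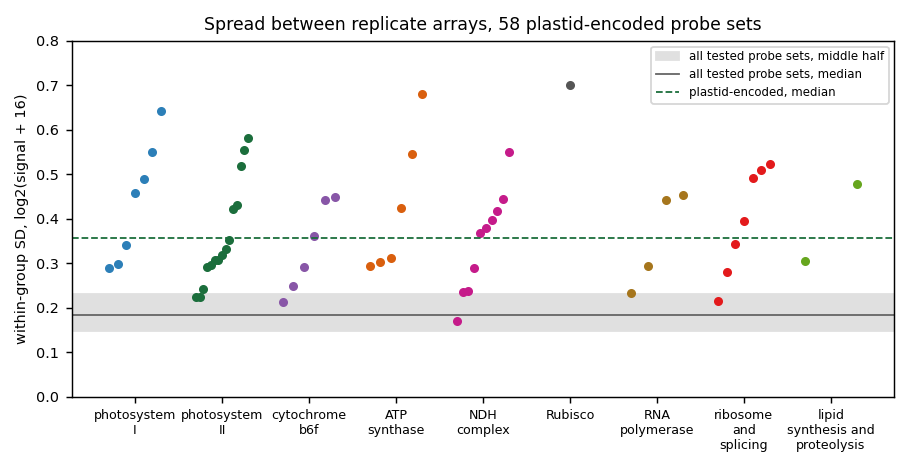
Within-group SD of log2(signal + 16) for each of the 58 plastid-encoded probe sets (points, by class), pooled over the 7 groups. The grey band is the interquartile range of all 16161 tested probe sets around their median of 0.18 (solid line), and the dashed line is the members' median of 0.36; most members lie above the band, and rbcL is highest at 0.70.

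Much of this spread was shared by the members. The first principal component of the deviations from the group means held 55.4% of the members' variance, with all 58 members weighted in the same sign, against 19.1% over all tested probe sets. The mean log2 signal of the 58 members ran from 8.75 on developing 24 h replicate 2 to 9.92 on developing 96 h replicate 3. Replicate 2 at 24 h was the lowest array of its group for 50 of 58 members. Replicate 1 at 4 h was the highest of its group for 50 members, and replicate 1 at 96 h the lowest for 44. Between replicates 1 and 2 at 24 h the members differed by a median of 2.1-fold, and 32 of 58 differed by more than 2-fold. Taking each array's signals relative to its own plastid mean lowered the members' median SD to 0.28.

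Array controls moved with some of these arrays. The 25S ribosomal RNA control read 4449 on replicate 1 at 24 h and 16.8, the lowest of all arrays, on replicate 2 at 24 h. It read 1571 on replicate 1 at 48 h and 1536 on replicate 1 at 96 h, against a median of 67.7 over the 26 arrays. In 4 of 6 developing groups the array with the highest 25S signal also had the highest plastid mean. At 96 h the opposite held, since replicate 1 had the highest 25S signal and the lowest plastid mean of its group (9.29). The cre spike-in, an added control RNA, read 6451 and 6745 on replicate 1 at 24 h and 48 h, against a median of 2356. The level exceeded by 0.1% of an array's probe sets was 2314 to 2958 at 12 h and 3299 to 5457 at 24 h, so this top level was lower at 12 h than at 24 h. It was 3068 to 4060 at 96 h. The ranges at 2 h (2831 to 3708), 4 h (2911 to 3339) and 48 h (2535 to 5325) overlapped that at 12 h. The part of these array differences in the results below was not tested.

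**Figure D2:**
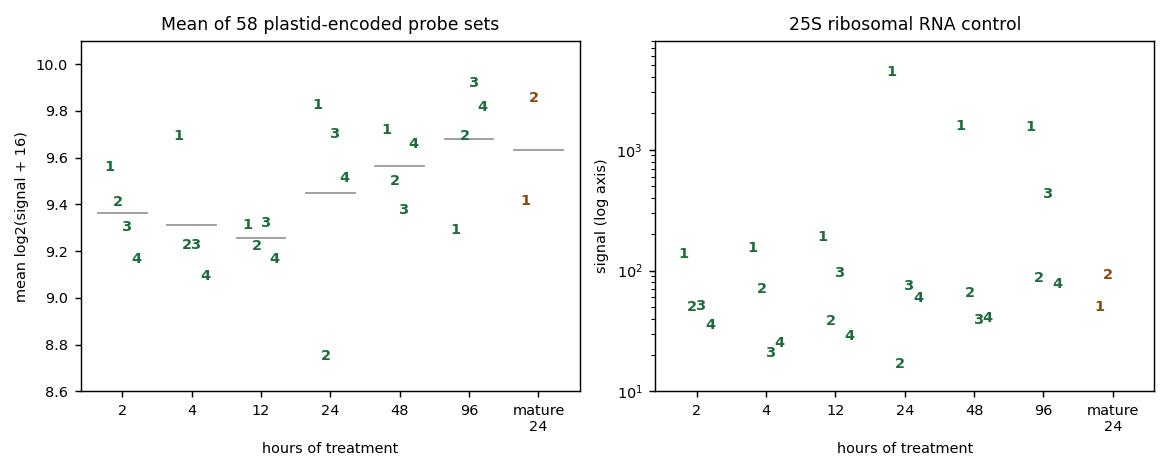
Left, mean log2(signal + 16) of the 58 plastid-encoded probe sets on each of the 26 arrays, with digits for replicate numbers and bars for group means; replicate 2 at 24 h is lowest at 8.75. Right, the 25S ribosomal RNA control on a log axis, highest at 4449 on replicate 1 at 24 h and lowest at 16.8 on replicate 2 of the same group.

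In developing leaves the plastid-encoded signal was lowest at 12 h and highest at 96 h, but most members did not differ between times beyond their spread. The mean log2 signal of the 58 members was 9.36 ± 0.17 (SD, n = 4) at 2 h, 9.31 ± 0.26 at 4 h, 9.25 ± 0.07 at 12 h, 9.45 ± 0.48 at 24 h, 9.56 ± 0.16 at 48 h and 9.68 ± 0.28 at 96 h. Neighbouring times overlapped throughout. The members together made up 1.88% of the summed array signal at 12 h and 2.39% at 96 h. Of the 58 members, 35 (60.3%) had their lowest group mean at 12 h and 35 (60.3%) their highest at 96 h, against 20.0% and 18.8% of all tested probe sets. The members shared much of their variation between arrays, so a few arrays can move most of them together and these counts are not of independent genes. Under quantile normalization, which gives all arrays the same distribution of signals, the members' median change from 2 h to 12 h was 0.03 instead of -0.10 log2, so the low values at 12 h depended on the scaling. In whole leaves, fewer cells of a type and less RNA per cell cannot be told apart.

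**Figure D3:**
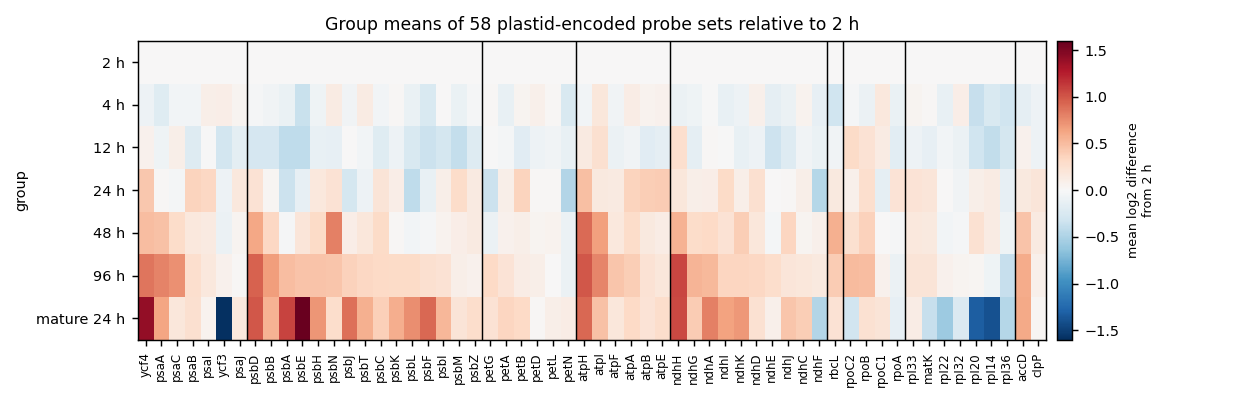
Group means of the 58 plastid-encoded probe sets as log2(signal + 16) minus the 2 h mean (colour), by group (rows) and class (blocks between vertical lines, members ordered by the 96 h value). Blue cells gather at 12 h, where 35 members have their lowest developing mean, and red cells at 96 h; in mature leaves psbE and ycf4 are most red and ycf3, rpl20 and rpl14 most blue.

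A test for any difference among the 6 times (limma's moderated F test, adjusted p under 0.05) called 9 of 58 members, which is 15.5%, against 50% of all tested probe sets. They were the photosystem II genes psbD, psbE, psbF, psbC and psbN, the NDH genes ndhH, ndhA and ndhI, and the photosystem I assembly factor ycf4. No member of the cytochrome b6f, ATP synthase, Rubisco, RNA polymerase or ribosome and splicing classes was called. The calls of psbD, ndhH and psbE held when any 1 array was left out. Leaving out developing 24 h replicate 2 gave 20 calls, and the count was 17 without 96 h replicate 1, 5 without 12 h replicate 1, and 4 without either replicate 3 or replicate 4 at 96 h.

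psbD encodes D2, the partner of D1 in the photosystem II reaction centre. Its signal was 705, 527, 536 and 487 at 2 h, 785, 524, 547 and 411 at 4 h and 552, 438, 477 and 395 at 12 h. It was 945, 259, 932 and 815 at 24 h, 673, 892, 855 and 1084 at 48 h and 902, 1164, 1260.0 and 1077 at 96 h. All 4 arrays at 96 h were above all 4 at 12 h, and replicate 2 at 24 h was below every other array. Group means spanned 1.21 log2, from 465 ± 66.7 (SD) at 12 h to 1101 ± 152 at 96 h (adjusted p = 0.0021). psbC, which encodes the antenna protein CP43 and lies beside psbD, spanned 0.52 log2, from 1482 ± 65.8 at 12 h to 2138 ± 217 at 96 h (adjusted p = 0.029). Its 48 h mean was 2137 ± 449, and its call was lost without any 1 of 5 arrays. psbZ, a small photosystem II subunit gene downstream of psbC, was not called (adjusted p = 0.64).

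psbE and psbF encode the α and β subunits of cytochrome b559, a haem protein needed to assemble photosystem II. The psbE signal was 550.1, 689, 560.3 and 465 at 2 h, 455, 449.9, 424 and 414 at 4 h and 349.6, 408, 511 and 419 at 12 h. It then read 489.6, 299.6, 608 and 752 at 24 h, 495, 706, 667 and 748 at 48 h and 617, 728, 828 and 980.5 at 96 h. All arrays at 96 h were above all arrays at 4 h and at 12 h, while 24 h overlapped its neighbours. The group means of psbE spanned 0.87 log2 (adjusted p = 0.0016) and those of psbF 0.60 log2 (adjusted p = 0.016). psbF means ran from 789 ± 113 at 12 h to 1209.7 ± 217 at 96 h. The psbF call was lost without replicate 3 or replicate 4 at 96 h.

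psbN encodes a small protein needed to assemble photosystem II and is read from the strand opposite to its neighbours psbT and psbH. Its mean signal was dim, from 37.4 at 12 h to 87.6 at 48 h, and its call (adjusted p = 0.040) was lost without any 1 of 11 arrays. Replicate 1 at 24 h read 135.8 for psbN, against 23.3 on replicate 2.

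ndhH, ndhA and ndhI lie side by side and encode subunits of the NDH complex, which returns electrons to the plastoquinone pool around photosystem I. ndhH read 100.2, 61.9, 74.4 and 64.3 at 2 h, 82.8, 56.7, 68.1 and 67.5 at 4 h and 82.8, 73.6, 127 and 91.9 at 12 h. Later it read 77.7, 42.5, 138 and 113 at 24 h, 92.7, 92.5, 142 and 148 at 48 h and 109, 181, 201 and 219.6 at 96 h. Every array at 96 h was above every array at 2 h and 4 h. The means spanned 1.16 log2 (adjusted p = 0.0023). ndhA spanned 0.53 log2, from 869 ± 46.9 at 4 h to 1291 ± 337 at 96 h (adjusted p = 0.021), a call lost without replicate 3 or replicate 4 at 96 h. ndhI spanned 0.46 log2, from 1832 ± 77.1 at 4 h to 2553 ± 407 at 96 h (adjusted p = 0.049). Its call was lost in 20 of the 26 fits that left out 1 array.

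ycf4, an assembly factor of photosystem I, ran from 525 ± 76.3 at 4 h to 1074 ± 369 at 96 h, a span of 0.94 log2 (adjusted p = 0.035) whose call was lost without any 1 of 11 arrays. The photosystem I reaction centre genes were not called among the times. psaA read 2223, 299, 2218 and 2400.3 at 24 h, so replicate 2 was far below the rest, and 1784, 2325, 2964 and 2563 at 96 h. Its means spanned 0.99 log2 (adjusted p = 0.19). psaB, cotranscribed with psaA, read 5239, 2713, 3578 and 3820.4 at 24 h and 3029, 3608, 3957 and 3456 at 96 h (adjusted p = 0.085). psaC, whose product carries iron-sulfur centres of photosystem I, had means from 449.7 ± 139 at 2 h to 749 ± 168 at 96 h (adjusted p = 0.16).

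In the classes with no call, the member with the widest span of group means is given. For ATP synthase this was atpH, the subunit of the membrane ring, which read 791, 509, 701 and 715 at 2 h, 1743, 205, 1249.8 and 1713 at 24 h and 723, 1641, 1793 and 1578 at 96 h. Its 24 h arrays reached both below and above all arrays at 2 h, and its span of 1.04 log2 had an adjusted p of 0.10. The Rubisco gene rbcL read 604, 377, 206 and 151 at 4 h, 852, 140.0, 497 and 471 at 24 h and 1079, 577, 334 and 456 at 48 h (span 0.89 log2, adjusted p = 0.42), with all 3 groups overlapping. For the cytochrome b6f complex it was the small subunit gene petG, with means from 101 ± 50.4 at 24 h to 155 ± 34.2 at 96 h (adjusted p = 0.42).

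Among the gene expression members, rpl20, a large-subunit ribosomal protein gene, had means from 402 ± 98.8 at 12 h to 605 ± 159 at 48 h (adjusted p = 0.42). rpoB, the β subunit of the plastid-encoded polymerase, was dim, with means from 29.1 ± 3.80 at 4 h to 57.3 ± 28.4 at 96 h (adjusted p = 0.41). On 6 of the 26 arrays rpoB did not exceed the array's 40th percentile, and ndhF did so on 8 arrays only. accD, a subunit of the acetyl-CoA carboxylase of fatty acid synthesis, ran from 307 ± 132 at 4 h to 505 ± 106 at 96 h (adjusted p = 0.19). None of these passed the test for a difference between times.

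Pairwise, no member was called at 4 h against 2 h (2.04% of tested probe sets called), at 12 h against 2 h (28.5%) or at 24 h against 2 h (9.2%). These 3 comparisons share the 2 h arrays. At an unadjusted p under 0.05 they gave 0, 2 and 2 members, against 1562, 6112 and 3512 of the 16161 tested probe sets. At 12 h against 2 h, 47 of 58 changes were negative, with a median of -0.10 log2 against 0.03 over all tested probe sets. The lowest adjusted p there was 0.077, for psbF, which changed by -0.35 ± 0.15 (SE) log2, with every array at 12 h below every array at 2 h, as in 13.7% of tested probe sets. Under quantile normalization 1 member was called, and it was higher. Without developing 24 h replicate 2, which left 3 arrays at that time, 7 members were called at 24 h against 2 h. There was 1 call in that pair without 48 h replicate 1, and 1 at 12 h against 2 h without 24 h replicate 2 or 12 h replicate 3.

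At 24 h against 12 h, 5 of 58 members rose and none fell, or 8.62%, against 29.3% of tested probe sets called 13% called higher and 16.2% lower. The median change of the members was 0.23 log2, against -0.04 over all tested probe sets, and 47 of 58 were positive. The 5 belong to 4 complexes. psbM, a small subunit of photosystem II, read 2331, 2867, 2388 and 2168 at 12 h and 5097, 3018, 3995 and 3715 at 24 h, with no overlap (11.7% of tested probe sets were higher without overlap), a change of 0.68 ± 0.19 log2 (SE, adjusted p = 0.0092). petB, which encodes cytochrome b6, read 2249, 2674, 2628 and 2233 and then 4814, 2768, 3708 and 3270.2, again with no overlap (0.55 ± 0.16 log2, adjusted p = 0.011).

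The 2 neighbouring ATP synthase genes rose together. atpB, the catalytic β subunit, read 2918, 3620.5, 3536 and 2638 at 12 h and 6854, 3598, 4535 and 4296 at 24 h, where replicate 2 fell within the 12 h range (0.57 ± 0.19 log2, adjusted p = 0.025). atpE, the ε subunit, read 2706, 2974, 2899 and 2546 and 5643, 3519, 3793 and 3645, without overlap (0.55 ± 0.19 log2, adjusted p = 0.026). The photosystem I gene psaB read 2429.8, 2389, 2993 and 2315 and 5239, 2713, 3578 and 3820.4, with overlap (0.57 ± 0.18 log2, adjusted p = 0.021). The RNA polymerase subunit gene rpoA also did not overlap, from 641 ± 42.2 to 848 ± 147, but was not called (adjusted p = 0.057).

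These calls depended on the scaling and on single arrays. Under median scaling 8 members were called, the 5 among them. Under quantile normalization no member was called and the members' median change was -0.02 log2. psaB, atpB and atpE then had changes of -0.0376, -0.0186 and -0.12 log2. The count was 19 without 24 h replicate 2, 1 without 24 h replicate 1, 3 without 12 h replicate 1 and 2 without 12 h replicate 4. psbM was the 1 call that held without any single array. RCA, the nuclear gene of Rubisco activase and the mesophyll marker with a probe set of its own, rose as well, from 2452 ± 217 to 4062 ± 1059.7 (0.69 ± 0.17 log2, adjusted p = 0.0027). Its 24 h arrays read 5543, 3032, 3758 and 3915, so replicate 1 was highest and replicate 2 lowest, as in the mean of the members.

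At 48 h against 24 h no member was called and no probe set at all (0% of tested). At an unadjusted p under 0.05 there were 2 members and 1655 tested probe sets, and 1 member was called without 24 h replicate 1. At 96 h against 24 h, 4 of 58 members rose and none fell, or 6.90%, against 15% of tested probe sets called, 7.74% called higher and 7.23% lower. The median change was 0.21 log2 against -0.03 over all tested probe sets. No called member had groups without overlap, against 8.34% of tested probe sets that were higher without overlap. ndhH changed by 0.88 ± 0.24 log2 (adjusted p = 0.015), from 93.0 ± 41.9 to 177 ± 48.5. The other 3 lie in the psbE transcription unit. psbL, a small photosystem II subunit, read 345, 123, 328 and 209.6 at 24 h and 374, 307, 463 and 446 at 96 h (0.71 ± 0.22 log2, adjusted p = 0.027). psbJ, its neighbour, read 566, 266, 614 and 462 and 679, 539, 802 and 923 (0.65 ± 0.20 log2, adjusted p = 0.027). psbE rose by 0.59 ± 0.19 log2 (adjusted p = 0.029), and psbF, in the same unit, had a change of 0.37 ± 0.15 (adjusted p = 0.091).

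In psbL, psbJ, psbE and ndhH the lowest 24 h value was that of replicate 2. Without that array no member was called at 96 h against 24 h, and none was without 96 h replicate 4. The count was 1 without 96 h replicate 3, 7 without 96 h replicate 1 and 8 without 24 h replicate 3. The comparisons with 2 h or 12 h, with 48 h, with 96 h and with mature leaves that use the 24 h group share these 4 arrays, replicate 2 included.

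Mature leaves at 24 h differed from developing leaves at 24 h in 15 of 58 members, 11 higher and 4 lower. This was 25.9% of members, against 54.8% of tested probe sets called, 24.1% called higher and 30.7% called lower. The groups did not overlap in 12 members that were higher and 3 that were lower, against 27.4% and 34.9% of tested probe sets. Mature replicate 2 read above mature replicate 1 in 50 of 58 members, with a mean log2 signal of the members of 9.85 against 9.41. By role, 8 of 15 photosystem II genes were higher and none lower. In photosystem I the assembly factor ycf4 was higher and the assembly factor ycf3 lower, while none of the 5 subunit genes was called. Of the NDH genes, 2 of 10 were higher. Of the ribosome and splicing genes, 3 of 7 were lower. None of the members of the cytochrome b6f complex, ATP synthase, Rubisco, RNA polymerase or the enzyme class was called. The median change was 0.31 log2 over the 45 photosynthesis members, 33 of them positive, and -0.35 over the 11 gene expression members, 1 of them positive. Over all 58 it was 0.16, against -0.10 over all tested probe sets, which became -0.02 under median scaling and -0.06 under quantile normalization. Under median scaling 15 members were higher and 3 lower, and under quantile normalization 16 were higher and 4 lower. The count was 8, with 4 higher and 4 lower, without mature replicate 2, and 11, with 6 higher and 5 lower, without developing replicate 2 at 24 h.

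**Figure D4:**
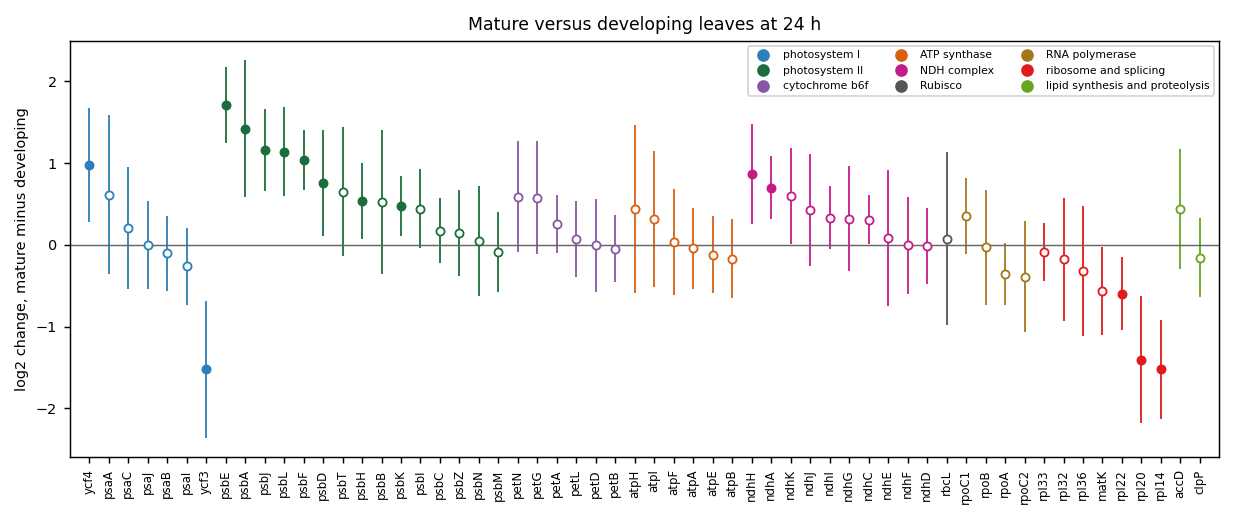
Log2 change of each plastid-encoded probe set in mature (n = 2 arrays) minus developing (n = 4) leaves at 24 h, by class. Points are limma estimates, bars 95% confidence intervals and filled points the 15 members with an adjusted p under 0.05; the filled points above 0 are mostly photosystem II genes and those below 0 are ycf3, rpl22, rpl20 and rpl14.

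The 4 genes psbE, psbF, psbL and psbJ, which lie next to each other with no gene between them, were all higher in mature leaves. psbE read 1809 and 1618 on the mature arrays, against 489.6, 299.6, 608 and 752 on the developing arrays at 24 h. Both mature values were above all 24 developing arrays of the series. The change of 1.72 ± 0.23 log2 was 3.28-fold on that scale (adjusted p = 3.0e-07). psbF read 2037 and 1796 against 859, 709, 1099 and 1078, a change of 1.04 ± 0.18 log2 (adjusted p = 1.6e-05). psbL read 526 and 545 against 345, 123, 328 and 209.6, a change of 1.14 ± 0.27 log2 (adjusted p = 0.00066). psbJ read 1064 and 1015 against 566, 266, 614 and 462, a change of 1.16 ± 0.24 log2 (adjusted p = 0.00019). For all 4 genes the mature arrays lay above all 24 developing arrays, and all 4 calls held when any 1 array was left out. Among the members only ycf4 was also above all developing arrays, so that 5 of 58 members were, against 17.2% of tested probe sets.

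**Figure D5:**
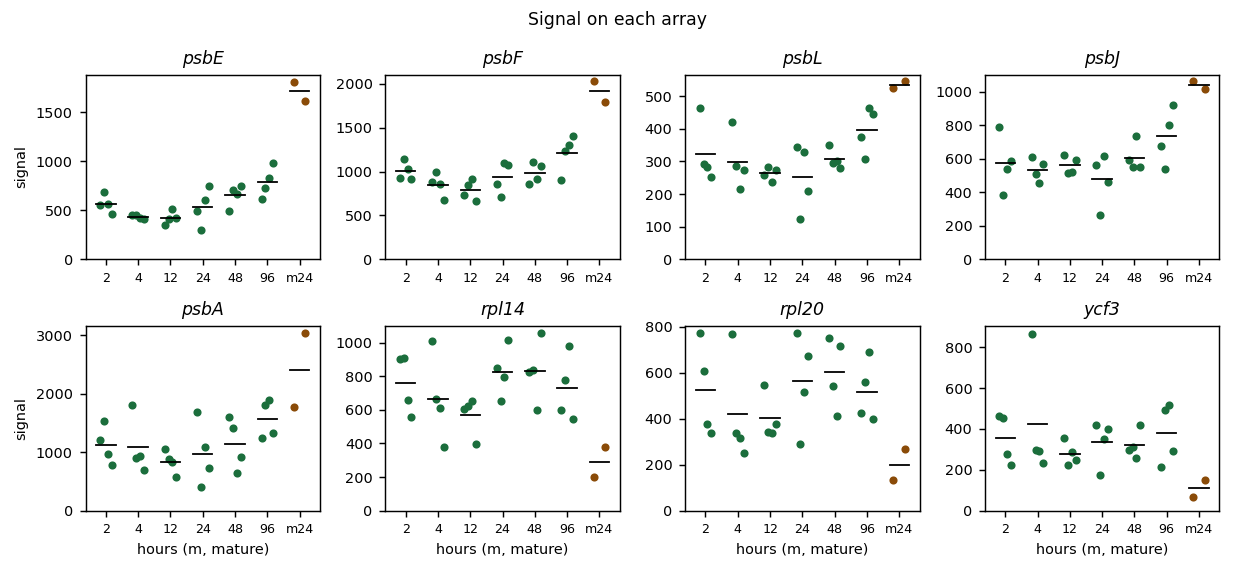
Linear signal on each array (points; green, developing leaves at 2 to 96 h; brown, mature leaves at 24 h, m24) with group means (bars) for 8 members. The mature points of psbE, psbF, psbL and psbJ lie above every developing point, and those of ycf3 below every developing point; the mature points of rpl14 and rpl20 are below the 24 h arrays.

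Other photosystem II genes were also higher. psbA, which encodes the D1 protein that is damaged by light and continually replaced, read 1769 and 3036 in mature and 1681, 396, 1096 and 723 in developing leaves. The groups did not overlap, but mature replicate 2 was far above replicate 1, and without it the psbA call was lost. The change was 1.42 ± 0.41 log2 (adjusted p = 0.0045). psbD read 998 and 1272 against 945, 259, 932 and 815 (0.76 ± 0.32 log2, adjusted p = 0.044). psbH, a small phosphorylated subunit, changed by 0.54 ± 0.23 log2 (adjusted p = 0.044), and psbK by 0.48 ± 0.18 (adjusted p = 0.025). These last 3 had no overlap with the 24 h arrays, and each lost its call without developing replicate 2 at 24 h or without mature replicate 2. All 3 calls were also lost in a fit of the compared groups alone. Those of psbD and psbH were further lost without mature replicate 1, with no filter, with no trend and with array weights. Not called were psbT (0.65), psbB for the antenna protein CP47 (0.52), psbI (0.44), psbC (0.18), psbZ (0.15), psbN (0.05) and psbM (-0.08 log2).

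The 2 assembly factors of photosystem I moved in opposite directions. ycf4 read 1399 and 1598 in mature leaves, against 835, 322, 1189.7 and 987 in developing leaves at 24 h, a change of 0.98 ± 0.34 log2 (adjusted p = 0.017). ycf3 read 64.8 and 152 against 421, 174, 349 and 400.1, a change of -1.52 ± 0.41 log2 (adjusted p = 0.0023). Both mature values of ycf3 were below all 24 developing arrays, the 1 member of which this was true, against 21.4% of tested probe sets. The ycf3 call was lost without mature replicate 1, and the ycf4 call without developing replicate 2 or either mature array. A fit of the compared groups alone also lost the ycf4 call. The subunit genes psaA (0.61 ± 0.47 log2), psaC (0.21 ± 0.36), psaJ (-0.00), psaB (-0.10) and psaI (-0.26) were not called. psaA read 1672 and 2689 in mature leaves, both values within the developing range.

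Of the NDH genes, ndhH changed by 0.87 ± 0.30 log2 (adjusted p = 0.016) with overlapping groups, since it read 117 and 246 in mature and 77.7, 42.5, 138 and 113 in developing leaves. ndhA read 1393 and 1692 against 971, 743, 1175 and 917, without overlap (0.70 ± 0.19 log2, adjusted p = 0.0025). The ndhA call was lost without mature replicate 2, and the ndhH call without it or developing replicate 2. With array weights, and in a fit of the compared groups alone, the ndhH call was lost as well. ndhI and ndhC, like ndhA, did not overlap, with changes of 0.33 ± 0.19 and 0.31 ± 0.15 log2, and were not called (adjusted p = 0.14 and 0.075). The changes of ndhK, ndhJ, ndhG, ndhE, ndhF and ndhD lay between -0.01 and 0.59 log2.

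In the cytochrome b6f complex, changes ran from -0.04 for petB to 0.59 for petN, with petA, the cytochrome f gene, at 0.25 ± 0.17 log2 (adjusted p = 0.23). In ATP synthase they ran from -0.17 for atpB to 0.44 for atpH. The atpH estimate had a 95% interval of ± 1.03 log2, which leaves both directions possible. rbcL read 339 and 559 in mature leaves against 852, 140.0, 497 and 471, a change of 0.07 ± 1.06 log2 (95% interval). These results do not show that the complexes were alike in both leaf types.

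The gene expression members were lower or not called. rpl14, a large-subunit ribosomal protein gene, read 197 and 379 in mature leaves and 851, 652, 795 and 1015 in developing leaves at 24 h. Its groups did not overlap, and the change of -1.52 ± 0.30 log2 (adjusted p = 8.3e-05) held without any 1 array. rpl20 read 134 and 267 against 773, 289, 516 and 673 (-1.40 ± 0.38 log2, adjusted p = 0.0025), with both mature values below the developing ones. Its call was lost without mature replicate 1. rpl22 read 678 and 907 against 1104, 838, 1411 and 1555, where 1 developing array, replicate 2, fell between the mature values (-0.60 ± 0.22 log2, adjusted p = 0.021). The rpl22 call was lost without mature replicate 1, without developing replicate 3 or 4 at 24 h, under median scaling and with replicate number as a block. The splicing factor gene matK read 1256 and 1734 against 3479, 1494, 2344 and 1862 and was not called (-0.56 ± 0.26 log2, adjusted p = 0.072). The polymerase genes rpoA, rpoB, rpoC1 and rpoC2 had changes of -0.35, -0.03, 0.35 and -0.39 log2, none of them called. accD (0.44) and clpP (-0.16), the protease subunit gene, were not called either.

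Because the members shared much of their variation between arrays, the comparison was repeated on values relative to the mean of the 58 members on the same array. This alternative was chosen after seeing the data, and by construction its changes average 0 over the members. It called 11 members in mature leaves, 10 of them among the 15 above. psbE (1.53 ± 0.27 log2), psbA (1.24 ± 0.26), psbJ (0.98 ± 0.27), psbL (0.96 ± 0.27), psbF (0.85 ± 0.25) and ycf4 (0.79 ± 0.27) were higher. ycf3 (-1.71 ± 0.29), rpl14 (-1.71 ± 0.27), rpl20 (-1.59 ± 0.28), rpl22 (-0.78 ± 0.24) and matK (-0.75 ± 0.22, adjusted p = 0.0044) were lower. psbD, ndhH, ndhA, psbH and psbK were not called relative to the other members. In developing leaves the same scale called 3 members among the 6 times and none in any pair of times. The plastid mean was taken off every probe set, so the other probe sets took on its variation between arrays. The fit draws on all tested probe sets for each SE. A missing call on this scale therefore does not show that a member moved with the rest.

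Transcription units were followed by their neighbouring members. The whole psbE unit was higher in mature leaves, as given above. In the psbB unit, psbH was called and psbB, psbT, petB and petD were not, with changes from -0.04 to 0.65 log2. In the psbD unit psbD was called and psbC and psbZ were not. In the 7-gene ndhH unit, ndhH and ndhA were called, and the remaining ndhI, ndhG, ndhE, psaC and ndhD had changes from -0.01 to 0.33. In the stretch from accD to petA, ycf4 was higher and accD, psaI and petA were not called. cemA, an envelope protein gene between ycf4 and petA that was not on the list, read 2213 and 2299.5 in mature and 1383, 894, 1756 and 1550.1 in developing leaves (0.73 ± 0.20 log2, adjusted p = 0.0028). In the ribosomal protein unit rpl22 and rpl14 were lower, and rpl36 and rpoA had changes of -0.32 and -0.35 log2. rpl16, between rpl22 and rpl14 and also not on the list, read 494 and 993 against 2109.9, 1128, 1531 and 1697 (-1.15 ± 0.27 log2, adjusted p = 0.00056).

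The 11 other plastid-encoded probe sets, 8 of them for ribosomal proteins of the small subunit, gave 3 calls in mature leaves. cemA was higher, and rpl16 and rps3 (-0.44 ± 0.18 log2, adjusted p = 0.046) were lower. Their median change was -0.44 log2. Of the 15 tested mitochondrion-encoded probe sets, 5 were higher and 1 lower in mature leaves, with a median of 0.37 log2. None of the 15 was called in any pair of developing times.

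Nuclear genes for subunits of the same complexes were measured by 8 probe sets with a gene of their own. At 24 h against 12 h, 5 of them rose and 2 fell. PSAE-1, a photosystem I subunit, rose by 0.98 ± 0.17 log2 (adjusted p = 5.2e-05) and PSAN by 0.93 ± 0.13 (adjusted p = 3.7e-06). NdhL and NdhN, subunits of the NDH complex, fell by 0.53 and 0.42 log2 there. At 96 h against 24 h NdhN (0.53 ± 0.11) and NdhL (0.44 ± 0.13) rose. In mature leaves NdhL (1.31 ± 0.16 log2, adjusted p = 1.1e-07) and NdhN (1.06 ± 0.13, adjusted p = 8.2e-08) were higher, and the other 6 were not called. Of 6 tested nuclear regulators of plastid RNA, all of them editing factors, 3 fell at 24 h against 12 h and 2 were lower in mature leaves. OTP81 had the largest of these mature changes, -0.68 ± 0.21 log2 (adjusted p = 0.0076), at a dim 22.7 ± 11.1 in developing leaves.

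Markers of other cells were checked beside the mature comparison. All 3 tested markers of dividing cells were lower in mature leaves, AUR1 by 1.65 log2, AUR2 by 1.77 and PRL by 2.24, and all 3 were also lower at 96 h than at 24 h. Their signals ran from 90.5 to 319 on the developing 24 h arrays and from 16.1 to 45.4 on the mature arrays. RCA was not called (-0.02 ± 0.21 log2, adjusted p = 0.93) and read 2234 to 5543 on all arrays. Of the 3 tested guard cell and epidermis markers 1 was higher and 2 were lower in mature leaves, and SWEET11, a sugar exporter of phloem parenchyma, changed by 2.38 ± 0.16 log2 (adjusted p = 7.0e-13). The root markers PYK10 and EXPA7 were dim, from 4.58 to 43.6 over all arrays, and both were lower in mature leaves (-0.54 ± 0.22 log2, adjusted p = 0.045, and -0.61 ± 0.22 log2, adjusted p = 0.023), without overlap. The part of these cell markers in the plastid differences was not tested.

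The remaining members are given by class. For photosystem II, psbB read 397, 359, 481 and 319 at 12 h and 714, 164, 783 and 563 at 24 h, so the 24 h arrays spread around the 12 h ones. psbT, which is cotranscribed with psbB, read 501, 176, 509 and 315 at 24 h and 235, 396, 624 and 812 at 96 h (adjusted p = 0.42 for that pair). The lowest of the 24 h arrays was replicate 2 for both genes. psbI had means from 1240.3 ± 230.0 at 4 h to 1445 ± 233 at 96 h, and psbK, its neighbour, from 1594 ± 225 at 4 h to 1949 ± 298 at 96 h. psbZ read 1391 to 1849.7 at 12 h and 1567 to 2279 at 96 h.

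In ATP synthase, atpI and atpF, of the membrane part, read 109, 15.0, 65.3 and 76.0 and 2027, 549, 1548 and 1511 at 24 h. atpA, the α subunit, read 2105, 2344, 2276 and 2009.7 at 12 h and 4598, 1759.8, 2857 and 3065 at 24 h, a change of 0.41 ± 0.20 log2 (adjusted p = 0.12). These 3 genes lie in 1 unit with atpH, and replicate 2 was the lowest 24 h array in all of them. In the cytochrome b6f complex, petA read 1618 to 1822 at 12 h and 1454 to 2488 at 96 h, and petD, cotranscribed with petB, 42.3 to 57.0 and 38.1 to 100.4. The small subunit genes petN and petL had 24 h means of 100.2 ± 30.7 and 959 ± 307, and mature means of 156 ± 36.3 and 972 ± 4.69.

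In the NDH complex, ndhC, the member with the smallest spread, read 1669, 1501, 1630.4 and 1328 at 24 h and 1547, 1353, 1869.7 and 1797 at 96 h. Its neighbours ndhK and ndhJ read 367, 136, 339 and 281 and 665, 269, 552 and 509 at 24 h. ndhF was near the dim end of the arrays, at 20.0, 8.54, 18.4 and 14.0 at 24 h and 9.41 and 21.2 in mature leaves. Among the gene expression members, rpl33 read 1777 to 2033 at 12 h and 2016 to 2807 at 96 h, rpl36 259.6 to 511 and 194 to 590.5, and rpl32 779 to 1281 and 869 to 1233. rpoC1 and rpoC2, neighbours of rpoB, had 24 h means of 907 ± 328 and 248 ± 79.9. clpP read 3258, 1352, 2666 and 2472 at 24 h and 1911 and 2257 in mature leaves, with overlapping groups.

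In all, 23 of the 58 members were called in at least 1 comparison or among the times, and 35 in none, against 71.7% of tested probe sets called in at least 1. The 58 members passed the filter on dim signals, so none was left out of the tests.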

How the data were processed

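Total RNA of the 26 samples was biotin-labelled and hybridised to ATH1 arrays. The deposited values are linear signal intensity per probe set, made with MAS5 per the submitters' processing notes, with no version given there. The trimmed mean (2% off each end) of every deposited column was 100.008 to 100.01, so the arrays had been scaled to a common mean, and array medians were 39.7 to 47.4. No further scaling was applied. Values were taken as log2(intensity + 16), 64 control probe sets were removed, and probe sets above the array's 40th percentile on at least 2 arrays were kept (16161 of 22810). Group means over all 26 arrays were fitted with limma 3.58.1 in R 4.3.3 with a mean-variance trend, and p-values were Benjamini-Hochberg adjusted over all tested probe sets, with calls under 0.05. The fit was tested on simulated data with independent noise for each probe set, without the variation between arrays that the members shared.

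Probe sets were named from the platform annotation where they had 1 symbol. Names and neighbours came from the RefSeq gene table of assembly TAIR10.1. The number of arrays limits precision. Over all tested probe sets, 95% intervals of log2 changes had a median of ± 0.27 between groups of 4 and ± 0.32 for mature leaves. The members' intervals were mostly wider, since their median within-group SD was 0.36, against 0.18 over all tested probe sets. Replicate arrays correlated at 0.964 to 0.989 and no columns were identical. The members and gene lists were chosen with earlier results of these data known. Any member could be named, and per-array values with statistics were given for up to 5 called members per direction and comparison, the members called among the times and the member with the widest range in each class; other values are summaries or describe neighbouring genes. The mitochondrion-encoded list was taken by symbol, since the placement rule first written matched no probe set. Alternatives were another pseudocount, no filter, quantile and median scaling, no trend, array weights, a replicate block, fits of the compared groups alone, values relative to the plastid mean, and leaving out arrays.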

Additional observations from a re-analysis of the deposited data

Results flagged for a closer look

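Over the 58 members and their mean level, each at 6 times in developing leaves, 354 groups of 4 arrays were examined. In 22 of them (6.21%), all for single members, 1 array stood apart, its distance to the nearest other array exceeding the 95% critical value of Dixon's test for 4 values. Chance gives about 1 in 20 such groups. Among the high values, rpl20 read 771 on 1 array at 4 h (nearest 339), ycf3 866 at 4 h (295) and ndhF 56.2 at 4 h, the other 3 arrays being lower. rpl32 read 1619 at 4 h (nearest 1027) and 2270.1 at 48 h (819.7), and petL read 1152 at 4 h (873) and 1377 at 48 h (866). ndhE read 829 at 96 h (nearest 425) and rpoC2 372 at 2 h (203). psaB read 3559.8 at 2 h (nearest 2771) and 2993 at 12 h (2429.8), and psaA read 2524 at 48 h (1778). atpE read 3608 at 2 h (nearest 2952) and 5643 at 24 h (3793), and ycf4 read 774 at 12 h (552).

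Among the low values, psaA read 299 at 24 h (nearest 2218), psbH 746 at 24 h (1623) and psbK 1133 at 24 h (1864), in each case on replicate 2. psbK also read 1300.0 at 2 h (nearest 1627). rpl22 read 989 at 48 h (nearest 1198), ycf4 615 at 48 h (843) and rpoB 14.8 at 96 h (69.4).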

How the results depend on the processing

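For the members called in pairs of groups, direction and side of the threshold were kept in 805 of 888 values under the alternatives. Of the others 80 lost the call and 3 reversed, all at 24 h against 12 h under quantile normalization (psaB -0.0376, atpB -0.0186 and atpE -0.12 log2). Most of the 888 values came from leaving out 1 array, usually one outside the compared pair, which could not move the change. The share kept therefore says little about how firm the calls were. All 4 calls at 96 h against 24 h, and 4 of 5 at 24 h against 12 h, were lost without some 1 array. The 9 members called among the 6 times lost the call in 51 of 234 values without 1 array. Among the 6 times, 9 members were called, 5 with no filter, 28 with array weights and 3 relative to the plastid mean. At 12 h against 2 h, 0 were called, 1 after quantile normalization, 2 with array weights and 3 in a fit of these groups alone. At 24 h against 2 h, 0 were called and 2 with array weights. At 24 h against 12 h, 5 were called, 3 with no filter, 0 after quantile normalization, 8 after median scaling, 14 with array weights and 0 relative to the plastid mean. At 96 h against 24 h, 4 were called, 2 with no filter, 8 without the 2 arrays of highest cre spike-in, 1 in a fit of these groups alone and 0 relative to the plastid mean. For mature leaves the count was 11 to 20 under these alternatives. Leaving out 1 array at a time gave 4 to 20 among the times, 0 to 0 at 4 h and 0 to 1 at 12 h against 2 h, 0 to 7 at 24 h against 2 h, 1 to 19 at 24 h against 12 h, 0 to 1 at 48 h and 0 to 8 at 96 h against 24 h, and 8 to 17 for mature leaves, where the lone array was assumed to vary like the other groups. The cause of these differences was not tested. Of pairs of arrays that shared a replicate number, 23 of 72 had deviations correlated over 0.1 (median 0.037), against 27 of 216 pairs with different numbers (median -0.0037), and 14 of 26 arrays correlated best with their own number. This is a hint from the data that some same-numbered arrays deviated together. The labels tie the numbers to no shared plant or batch, and not every pair was over 0.1, so the samples were not treated as paired. With the replicate block 10 members were called among the times, 7 at 24 h against 12 h, 4 at 96 h against 24 h, 15 for mature leaves (14 of them shared with the fit without the block, rpl22 being lost and matK gained) and 0 in the other pairs. The values relative to the plastid mean were chosen after seeing the data, and missing calls on that scale carry the limit given with them above. Few arrays limit what could be called, and ndhF, rpoB, psbN and atpI were not above the filter's percentile on every array.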

Other observations

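Outside the plastid genome, the 22 mitochondrion-encoded probe sets, of which 15 passed the filter and were tested, had a mean log2 signal of 5.19 to 5.59 per array. In mature leaves nad9, a subunit of respiratory complex I, read 55.2 and 56.5 against 21.2, 28.9, 31.1 and 28.4 in developing leaves at 24 h (0.73 ± 0.18 log2, adjusted p = 0.0012). cox2, a subunit of cytochrome oxidase, read 45.8 and 33.7 against 18.2, 16.6, 28.1 and 12.0 (0.69 ± 0.22 log2, adjusted p = 0.0078). ccb382, a cytochrome c maturation gene, read 107 and 135 against 314, 165, 304 and 236 (-0.95 ± 0.20 log2, adjusted p = 0.00016).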
